A study of Mus musculus with 18 samples.

Results

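CTCF binding was compared between mouse embryonic stem cells without the TET enzymes and wild-type cells, region by region, from the peak lists the authors called. The wild-type line (WT) carries no stated allele, and the TKO line is a triple knockout of Tet1, Tet2 and Tet3. Each was profiled with 3 CTCF chromatin immunoprecipitation (ChIP-seq) samples and 3 input samples, 12 of the 18 samples of the series. The other 6 belong to SKO, a line that lacks the same 3 genes and also Dnmt1, Dnmt3a and Dnmt3b; its values are set beside those of TKO where they help. Cells of every genotype were cultured with LIF on irradiated mouse embryonic fibroblasts, so feeder chromatin may be present. Each genotype is a separate line, so absence of the enzymes and other differences between the lines cannot be told apart. The labels do not say whether replicates came from separate cultures, and CTCF binds in every cell type, so the lists do not check the labelled one.

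Each list was called on the 3 replicates of a genotype pooled. Rows with the same interval were joined into 1 region, which gave 71075 WT and 62238 TKO regions. A WT region that no TKO region overlapped by at least 1 bp is called lost, a TKO region that no WT region overlapped is called gained, and the others are shared. With 1 pooled list per genotype there is no spread between replicates and no test between genotypes. Intervals are 95% intervals of counting error, and the libraries were amplified by PCR with no molecular identifiers mentioned, so fragments may not be independent molecules.

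CTCF is a zinc finger protein that binds a long motif and, with cohesin, marks the anchors of chromatin loops. CpG methylation within the motif is known to weaken its binding at some sites. TET enzymes oxidise 5-methylcytosine, the first step of its removal, and embryonic stem cells express Tet1 and Tet2. At the H19 and Igf2 locus, the best known methylation-sensitive case, CTCF occupies the unmethylated maternal imprinting control region and insulates Igf2 from its enhancers.

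Promoter sequences are shown first for the regions whose summit lay in a RefSeq promoter window (GRCm38.p6, the assembly behind mm10) that also held a match to the CTCF core, CCNNNAG followed directly by NNGGC. They are the 2 lost and the 2 gained regions with the highest −log10 q, and the highest-ranked shared region lower and that higher in TKO. Lower and higher here mean at least 2-fold by fold enrichment, after subtraction of the median log2 ratio over shared regions (−0.15). The 250 bases before the gene start are given 5′ to 3′ on the strand of the gene, with core matches on either strand in capitals, overlapping matches joined.
Olfr479, chr7:108054734-108054983, plus strand: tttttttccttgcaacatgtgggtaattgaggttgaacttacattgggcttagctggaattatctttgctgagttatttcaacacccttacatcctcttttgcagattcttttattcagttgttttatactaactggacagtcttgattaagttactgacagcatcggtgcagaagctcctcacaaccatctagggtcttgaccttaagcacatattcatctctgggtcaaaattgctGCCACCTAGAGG
Nck2, chr1:43445501-43445750, plus strand: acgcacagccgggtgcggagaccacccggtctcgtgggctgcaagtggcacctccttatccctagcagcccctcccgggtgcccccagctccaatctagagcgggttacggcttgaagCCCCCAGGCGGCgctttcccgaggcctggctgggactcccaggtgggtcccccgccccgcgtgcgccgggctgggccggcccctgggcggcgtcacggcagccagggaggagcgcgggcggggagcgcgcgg
Tbc1d2, chr4:46650200-46650449, minus strand: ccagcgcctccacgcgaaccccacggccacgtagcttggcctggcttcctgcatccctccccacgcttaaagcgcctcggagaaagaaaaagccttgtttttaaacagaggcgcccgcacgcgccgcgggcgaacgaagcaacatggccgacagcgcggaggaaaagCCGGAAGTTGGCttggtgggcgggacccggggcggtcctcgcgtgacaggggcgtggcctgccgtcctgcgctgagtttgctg
Kctd8, chr5:69341710-69341959, minus strand: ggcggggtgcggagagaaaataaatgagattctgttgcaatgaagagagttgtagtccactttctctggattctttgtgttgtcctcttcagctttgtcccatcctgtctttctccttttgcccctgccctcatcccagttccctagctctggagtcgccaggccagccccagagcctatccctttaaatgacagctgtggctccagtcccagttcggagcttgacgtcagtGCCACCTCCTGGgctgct
Wdr41, chr13:94976094-94976343, plus strand: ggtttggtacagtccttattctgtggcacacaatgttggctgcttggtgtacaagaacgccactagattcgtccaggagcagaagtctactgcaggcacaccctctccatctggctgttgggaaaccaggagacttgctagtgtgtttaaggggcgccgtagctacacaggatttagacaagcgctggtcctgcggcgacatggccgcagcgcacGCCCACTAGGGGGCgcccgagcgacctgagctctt
Fitm2, chr2:163472630-163472879, minus strand: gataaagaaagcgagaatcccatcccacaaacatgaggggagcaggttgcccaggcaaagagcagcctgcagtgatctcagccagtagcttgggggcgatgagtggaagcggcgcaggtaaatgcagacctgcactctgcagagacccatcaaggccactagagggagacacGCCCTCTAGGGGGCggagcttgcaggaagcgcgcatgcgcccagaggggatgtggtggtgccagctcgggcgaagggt
The first pair was lost, the next pair gained, Wdr41 lower and Fitm2 higher.

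These regions were picked by rank and by a core match, which 43 of 203 lost and 34 of 184 gained promoter regions had. At Olfr479, an odorant receptor gene, the WT summit lay on the match (base 246 of the window, match from base 239), with a pileup of 29 fragments, and TKO had no region. The window holds 1 CpG, and the core match holds none. At Nck2, a signalling adaptor, the WT pileup was 27 and the match, from base 119, lay away from the summit at base 29, in a window with 37 CpGs. Tbc1d2, a regulator of Rab GTPases, gained a region with a pileup of 28 fragments, and its match holds CG at letters 2 and 3, but the summit lay at base 280 and the match began at base 168. Kctd8, which encodes an auxiliary subunit of GABA-B receptors, gained one with a pileup of 25, where SKO had 17. The WT summit at Wdr41 lay at base 126, and of 2 overlapping matches the one on the plus strand began at base 218. Fold enrichment there was 19.3 in WT and 6.77 in TKO, while the pileup went only from 54 to 42 fragments and the local background from 1.85 to 5.35. At Fitm2, a lipid droplet gene, the fold was 46.3 and 87.1, the pileup 376 and 415, and the background 7.14 and 3.78. In these shared promoters most of the change in fold was thus a change in its denominator.

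Fold enrichment is the authors' value, (pileup + 1)/(background + 1) at the summit. Fold and −log10 p together gave back the whole-number ChIP pileup and the local background, both in fragments over the summit, for 100% of rows in each list. The genome-wide background was 1.76 in WT and 1.82 in TKO (1.04 times WT), and in SKO it was 1.37. Median pileup was 40 in WT and 41 in TKO. At the genome-wide background the lowest pileup that entered a list was 7 in WT and 8 in TKO, and weaker binding was not detectable. The depth of single samples was not analysed here.

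Of the WT regions, 13492 were lost (19%, 18.7% to 19.3%), and 4663 TKO regions were gained (7.49%, 7.29% to 7.70%). The lost regions were weak. Among WT regions with a −log10 q under 5, 3875 of 5332 were lost (72.7%), and among those with 20 or more, 545 of 42083 (1.30%, 1.19% to 1.41%). Gains followed the same order, with 1897 of 3977 TKO regions under 5 gained (47.7%) and 53 of 37869 at 20 or above (0.140%, 0.107% to 0.183%). The decile of WT −log10 q with a median pileup of 34 fragments, the fifth from the bottom, still lost 6.94%. In the 2 strongest deciles 0 of 7113 and 0 of 7102 regions were lost, and 3 counts, the upper limit for a count of 0, would be 0.0422% of either.

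Of the 8 strongest losses, 2 lay inside protein-coding genes. The lost region of highest −log10 q was on chr16:95189184-95189500, within the non-coding gene Gm31641 and 68.2 kb from Kcnj15, an inward-rectifier potassium channel gene. It had a WT pileup of 75 fragments on a background of 4.49, and neither knockout had a region. Next came chr7:142581631-142582184, 3.49 kb from H19, with a pileup of 60 on a background of 2.47, also without an SKO region. A region 83.9 kb from Tmem178 (chr17:80860541-80860947) had 54 fragments on 1.89, again with none in SKO. The other 5 of the 8 strongest had an SKO region. Kit encodes the receptor for stem cell factor, and a region 13.1 kb from it (chr5:75669603-75669961) had 72 fragments in WT, no TKO region and 19 fragments in SKO. The region inside the non-coding gene 3110009F21Rik (chr12:110154630-110154983) had 51 in WT and 21 in SKO. Inside Cd163, a scavenger receptor gene of macrophages (chr6:124317370-124317711), the pileup was 49 in WT and 17 in SKO. A region 41.5 kb from Atp6v1c1, a vacuolar proton pump gene (chr15:38620223-38620522), had 47 and 16. Inside Adgra1, an adhesion G protein-coupled receptor gene (chr7:139877401-139877815), the values were 55 and 28. All 8 lay in the seventh or eighth WT decile, where only 13 of 7105 and 2 of 7090 regions were lost.

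On autosomes and X, among regions with a background up to 3 times the genome-wide one, the strongest gains had lower pileups than the strongest losses. Outside these limits 4 gained regions had a higher −log10 q. On chromosome 9, 2 of them lay near position 3004537 and position 3016977, with pileups of 1429 and 831 on backgrounds of 837 and 462. One on an unplaced contig had 783 on 428, and one on the Y chromosome (chrY:90828875-90829251) had 47 on 1.82 in TKO and a pileup of 39 in SKO. Within the limits the first lay in the immunoglobulin kappa locus Igk (chr6:67631668-67632015), with 42 fragments in TKO and 32 in SKO. Inside Slc10a7, a solute carrier gene (chr8:78701908-78702192), the values were 43 in TKO and 23 in SKO. A region 1.41 kb from Xxylt1, a xylosyltransferase gene (chr16:30953703-30954134), had 45 fragments in TKO and no SKO region. SKO regions overlapped the remaining ones that are reported. The region 23.6 kb from Xbp1, a transcription factor of the unfolded protein response (chr11:5496916-5497278), had 43 fragments in TKO and 16 in SKO. A region 24.6 kb from Bcas2, a splicing factor gene (chr3:103203625-103203899), had 47 and 22. Near Arih1, a ubiquitin ligase gene 14.4 kb away (chr9:59373979-59374295), the values were 42 and 20. Inside Tmem109 (chr19:10880146-10880476) they were 39 and 13. The pileups of these 7 regions in TKO lay between 39 and 47, and those of the 8 losses in WT between 47 and 75.

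At shared regions TKO levels were slightly lower. Over 57446 one-to-one pairs the median log2 ratio of fold enrichment, TKO over WT, was −0.15 (quartiles −0.49 and 0.18), and 62.2% of pairs were below 0. The pileup, divided by the genome-wide background of its list, had a median log2 ratio of −0.21 (quartiles −0.44 and 0.01), a ratio of 0.863, and 73.7% of pairs were below 0. The local background had a median of −0.02 and quartiles of −0.38 and 0.27. Over the deciles of mean level of the pairs, the median shift in pileup lay between −0.13 and −0.23. A pair needs a region in both lists, and 70.4% of the weakest WT decile was lost. These medians therefore cannot show whether weak and strong sites shifted alike. The lists were normalised separately, and lower occupancy and a lower yield of the immunoprecipitations cannot be told apart. Summits stayed in place, with a median distance of 10 bp, and 96.0% of pairs had summits within 50 bp. In 749 pairs they lay over 100 bp apart, so the levels of such a pair belong to different summits.

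**Figure D1:**
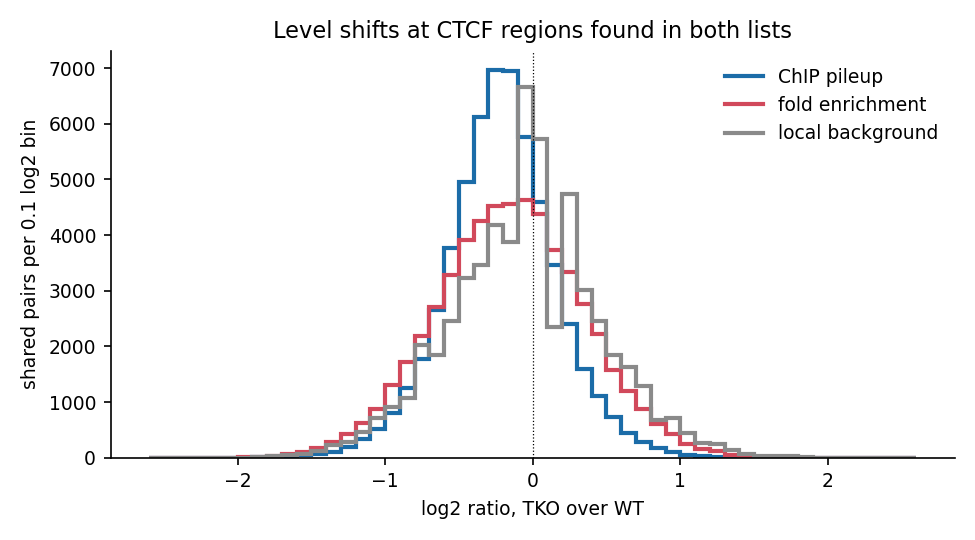
Log2 ratios of TKO over WT at shared pairs for ChIP pileup, fold enrichment and local background, as pairs per 0.1 log2 bin; pileup and background are divided by the genome-wide background of their list. The pileup curve is narrower (SD 0.38) than the fold curve (SD 0.50) and centred at −0.21.

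Fold and pileup picked out different regions. After the median was subtracted, 1415 pairs were at least 2-fold lower in TKO by fold (2.46%) and 1328 at least 2-fold higher (2.31%). Without that subtraction 2636 were lower and 619 higher. By pileup there were 444 lower pairs (0.773%) and 484 higher ones (0.843%). Of the pairs lower by fold, 205 (14.5%) were lower by pileup too, and of those higher by fold, 196 (14.8%). Across pairs, which share libraries and are not replicates, the log2 ratio of fold had r = −0.68 with the log2 ratio of background and r = 0.62 with that of pileup. Log2 pileup itself had r = 0.93 between WT and TKO, and log2 fold r = 0.79. Pileups are therefore given beside the fold shifts of single regions. The regions named next are extremes among all pairs, picked by these same values. Their intervals cover counting error alone and do not allow for that choice.

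The shared region with the lowest fold ratio lay at the H19 imprinting control region. The WT region on chr7:142580068-142580955, 1.92 kb from H19, had 2 summits, with 42 and 49 fragments on backgrounds of 2.05 and 2.16. The TKO region had 1 summit, 65 bp from the first WT one, with 11 fragments on a background of 3.46, and none within 100 bp of the second. Between the summits that match, fold was 14.1 in WT and 2.69 in TKO, and the scaled pileup ratio was 0.253 (0.117 to 0.4997). SKO had no region there. Together with the lost region described above, both WT regions near H19 were low or absent in TKO.

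The other shared regions with the lowest fold ratios also had lower pileups, on a higher background. On chr12:64626579-64627029, with no gene within 100 kb, the pileup was 53 in WT and 14 in TKO (ratio 0.255, 0.131 to 0.466), and 24 in SKO. The region 1.76 kb from the pseudogene Gm28282 (chr1:107959959-107960347) had 71 and 21 (ratio 0.286, 0.167 to 0.470). Inside Swt1, an RNA endonuclease gene (chr1:151377427-151377759), the pileup was 59 and 24 and the background 1.76 and 4.09. A region 34.8 kb from Iftap (chr2:101525710-101526160) had 90 and 34. Inside Tspan5, a tetraspanin gene, the pileup was 33 in WT and 13 in TKO. A region 34.8 kb from Dctd, the deoxycytidylate deaminase gene, had 37 and 12. Inside Pigk, a subunit gene of the GPI transamidase, the pileup was 53 and 17. All 7 had an SKO region, with pileups from 12 near Dctd to 62 near Iftap. The background was higher in TKO at each of the 8 regions, by 1.55 to 2.33 times. Background is the denominator of fold, so a choice by low fold ratio favours such regions.

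Of the 8 shared regions with the highest fold ratios, 2 compared different summits, and once summits were matched the interval of each pileup ratio included 1. Near Yeats4, a reader of acetylated histones, a weak WT region (chr10:117210148-117210606) with 12 fragments was paired with a wide TKO region whose main summit had 109. A separate WT region beside it (chr10:117209572-117209944) had 128 fragments at that summit, a ratio of 0.822 (0.631 to 1.07), and the weak WT summit matched a TKO summit of 13 fragments. Near Slc28a3, a nucleoside transporter gene, the summits that match had 20 in WT and 31 in TKO (ratio 1.50, 0.826 to 2.77) and 29 and 40 (1.33, 0.805 to 2.23).

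The other 6 were pairs of like summits. At Slc4a10, a bicarbonate transporter gene (chr2:62285889-62286232), 13 fragments in WT stood against 40 in TKO and 30 in SKO, on backgrounds of 1.76 and 1.82 in WT and TKO. Its ratio was 2.97 (1.56 to 6.05). At the remaining 5 the ratio of pileup was smaller than that of fold, which a choice by high fold ratio favours. Inside Asxl2, a chromatin regulator gene (chr12:3437846-3438114), the pileup was 27 and 58, and the background 3.96 and 2.06. Near Rb1cc1, an autophagy gene, it was 20 and 42, near the kinase gene Prkx 13 and 30, and near the kinesin gene Kif3c 28 and 50. The background at these 3 regions was 3.70, 2.91 and 3.70 in WT and 1.82 in TKO at each. Inside Slc4a7, another bicarbonate transporter gene, the pileups of 29 and 41 gave a ratio of 1.36 whose interval (0.828 to 2.28) includes 1, on a background of 5.02 in WT and 1.82 in TKO.

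**Figure D2:**
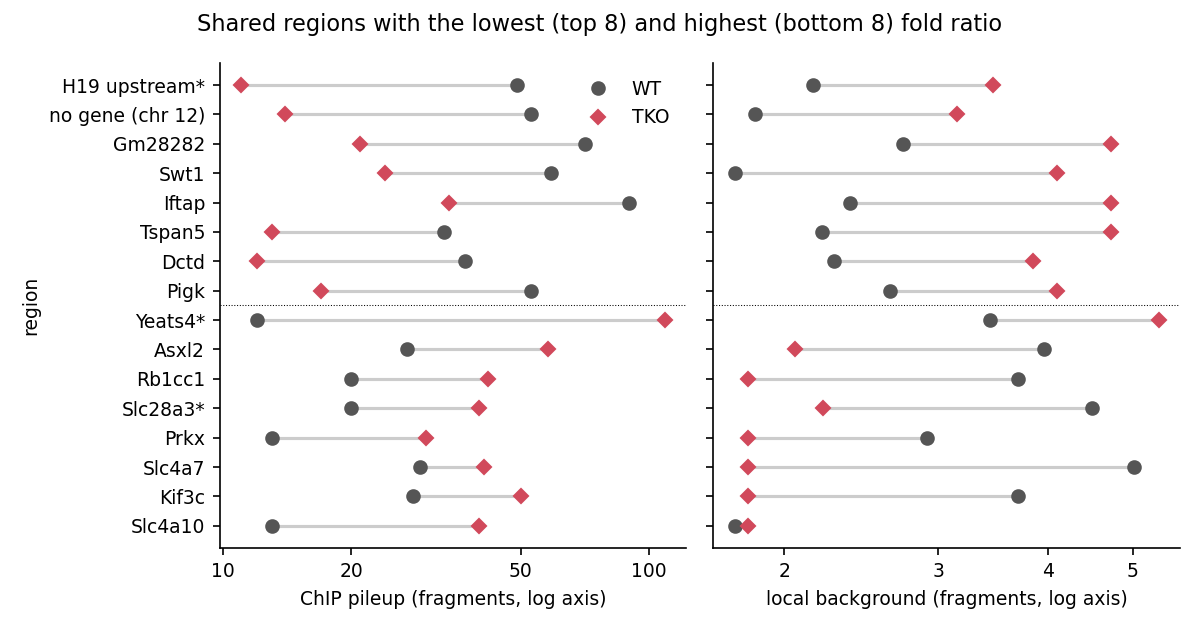
ChIP pileup (left) and local background (right), in fragments on log axes, in WT (circles) and TKO (diamonds) at the 8 shared regions with the lowest and the 8 with the highest fold ratio among pairs with a −log10 q of at least 20 in a list. The background was higher in TKO at each of the upper 8, which a choice by low fold ratio favours. Pileup at Slc4a10 was 13 in WT and 40 in TKO. An asterisk marks 3 pairs whose main summits lay over 100 bp apart, where the plotted levels belong to different summits.

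Ranked by pileup among pairs with summits within 100 bp, a limit and a ranking chosen after their values were seen, other regions led on autosomes and X with a background up to 3 times the genome-wide one in both lists. Beyond the limits on chromosome and background, 31 pairs had a higher pileup ratio than the region inside Cbwd1, the highest within them. Of these, 14 lay in the first 5 Mb of chromosome 9. Beyond the same limits 1 pair had a lower ratio than the region near Mmp16, the lowest within them. Of the 444 lower and 484 higher pairs by pileup, 19 and 37 had main summits over 100 bp apart. The regions that follow were also picked by the pileups shown, and their intervals do not allow for that choice. A region 2.15 kb from Dennd2a, a regulator of Rab GTPases (chr6:39459981-39460453), had 91 fragments in WT, 23 in TKO and 66 in SKO, a TKO over WT ratio of 0.244 (0.147 to 0.389). It lay in the ninth WT decile. The region 26.1 kb from Mmp16, a matrix metalloproteinase gene (chr4:17826752-17827173), had 48, 11 and 23. Its TKO over WT ratio was 0.221 (0.104 to 0.432). Inside Stk39, a kinase gene (chr2:68376637-68377006), the pileup was 44 in WT and 11 in TKO, and SKO had no region. Inside Apbb2 (chr5:66382713-66383033) it was 35, 9 and 15, and on chr8:89767731-89768082, with no gene within 100 kb, 52, 12 and 10. A region 19.4 kb from Mki67, the proliferation marker gene (chr7:135735614-135736081), had 58, 15 and 21. On the higher side, the pileups inside Cbwd1 (chr19:24958668-24958920) were 16 in WT, 52 in TKO and 35 in SKO, a TKO over WT ratio of 3.14 (1.76 to 5.89). Slc4a10, given above, came next. The pileups were near the vomeronasal receptor pseudogene Vmn1r-ps137 18, 53 and 49, and 74.8 kb from Castor2 15, 43 and 27. A region 5.42 kb from Bptf, a chromatin remodeller gene (chr11:107137466-107137707), had 14 and 39 and no SKO region, and inside Thsd7a (chr6:12315109-12315317) the values were 16, 43 and 27. Igk and the vomeronasal genes belong to families of similar copies. The handling of reads that map to several places is not given in the sources used here, so the values there are uncertain.

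Chromosome 14 stood apart. Its median log2 pileup ratio was −0.39, and the other 19 chromosomes lay between −0.27 and −0.15. The change began near position 54228178, a place found from these data. Before it, 1124 pairs had a median of −0.16 and a mean log2 background ratio of −0.02. From there to the end of the chromosome 1234 pairs had a median of −0.58, 0.775 times the ratio of all pairs. Their mean log2 background ratio was −0.38, so pileup and background were both lower. The log2 ratio of fold, in which the 2 largely cancel, had a median of −0.23 there and −0.15 before it. Of 1660 WT regions in the distal segment 425 were lost (25.6%, 23.6% to 27.8%). The share lost at the same strength was 18.6%, the mean share lost of the WT deciles to which these regions belong. Before the segment 17.9% were lost, against 19.4% at the same strength. In the distal segment 53 pairs (4.29%) were at least 2-fold lower by pileup, against 0.706% on the other chromosomes. In SKO, compared with the same WT list, the median log2 pileup ratio was −0.45 in the distal segment, −0.15 before it and −0.08 on the other chromosomes. The number of copies of this segment in each line was not tested. In the first 5 Mb of chromosome 9, 39 pairs had a median log2 pileup ratio of 1.60. Their mean log2 background ratio was 0.98 and their median log2 fold ratio −0.03. In SKO the median log2 pileup ratio there was 1.29.

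**Figure D3:**
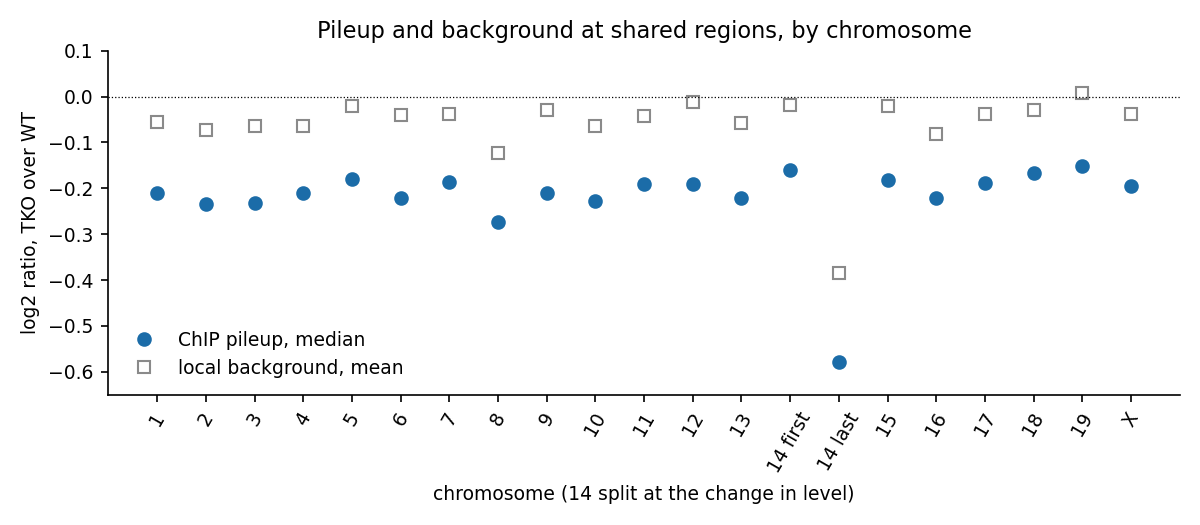
Median log2 pileup ratio (circles) and mean log2 background ratio (squares), TKO over WT, for the shared pairs of each chromosome, with chromosome 14 split at the position where its level changed. The last segment of chromosome 14 lies at −0.58 and −0.38, below the other chromosomes on both measures.

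Regions at gene ends were lost in smaller shares than regions of like strength elsewhere. The gene table gives both boundaries of a gene without exons, so an end is either boundary. Within 1 kb of an end of a protein-coding gene 993 of 6068 WT regions were lost (16.4%, 15.5% to 17.3%), against 20.0% at the same strength. By decile the shares at gene ends and elsewhere were 63.1% and 71.4% in the weakest, 42.8% and 56.1% in the next, 27.2% and 36.9% in the third, and 13.8% and 19.6% in the fourth. In the fifth they were 3.03% and 7.23%, and the intervals did not overlap in any of these deciles. Gains at gene ends were 617 of 5690 TKO regions (10.8%, 10.1% to 11.7%), above the 8.77% at the same strength. The median log2 pileup ratio at gene ends was −0.17. Regions outside protein-coding genes and over 100 kb from an end lost 25.9% (24.8% to 26.9%), against 23.6% at the same strength. Regions with several summits were lost in 3.98% of cases (3.19% to 4.95%), against 9.92%. These shares were matched for strength and not for width, on which an overlap of 1 bp also depends.

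**Figure D4:**
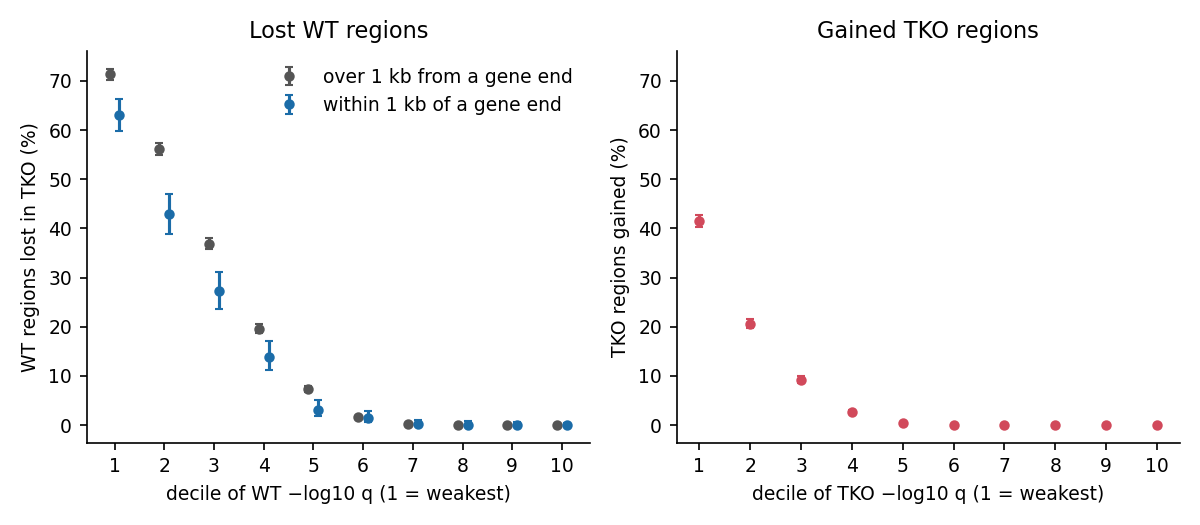
Percent of WT regions lost by decile of WT −log10 q, near gene ends and elsewhere (left), and percent of TKO regions gained by decile of TKO −log10 q (right), with 95% Wilson intervals. In the weakest WT decile 63.1% were lost at gene ends and 71.4% elsewhere, and gains went from 41.5% in the weakest TKO decile to 0% in the strongest.

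Promoter windows showed the same direction. They run from 250 bases before to 50 after a gene start, and 1637 WT and 1620 TKO summits fell in one of 32851 windows. Of these WT regions 203 were lost (12.4%, 10.9% to 14.1%; 16.8% at the same strength), and of the TKO regions 184 were gained (11.4%, against 7.83% at the same strength). The median log2 pileup ratio of their pairs was −0.17 and the median log2 fold ratio −0.05. The core (CCNNNAG joined to NNGGC), searched on both strands with overlaps kept, occurred in 8.61% of all windows. It occurred in 37.7% of windows with a shared WT region, 21.2% with a lost one and 18.5% with a gained one. Lost regions are weak, and among WT regions of the weakest 4 deciles the shares were 21.3% for lost and 25.1% for shared ones.

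Promoter regions with and without a CpG in the core were lost in shares whose intervals overlapped. With CG in the match 22 of 257 WT regions were lost (8.56%, 5.72% to 12.6%), with a match without CG 21 of 327 (6.42%, 4.24% to 9.62%), and with no match 160 of 1053 (15.2%, 13.2% to 17.5%). The shares at the same strength were 11.2%, 9.42% and 20.4%. With the shorter core AGNNGGC, 65 of 457 with CG in a match were lost (14.2%, 11.3% to 17.7%) and 99 of 911 with a match without CG (10.9%, 9.01% to 13.1%). With CG at letters 2 and 3 of the core, 14 of 183 were lost (7.65%, 4.61% to 12.4%). The median log2 pileup ratios were −0.16 with CG in the match and −0.20 without, with wide quartiles (−0.30 and 0.05; −0.35 and −0.03). The letters say nothing of whether a CpG was methylated, which was not measured in these files.

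By the number of CpGs in the whole window, the median pileup ratio was lowest in CpG-poor promoters, where it was near that of all pairs (log2 −0.21). With 0 to 5 CpGs the median log2 pileup ratio was −0.21 over 144 pairs, with 6 to 15 it was −0.20 over 449, and with 16 or more −0.15 over 838. The medians of fold were −0.14, −0.11 and −0.01. Among the stronger WT regions, those above the middle of the list, the pileup medians were −0.26, −0.23 and −0.18 over 101, 324 and 534 pairs. Their quartile ranges overlapped. Of all WT promoter regions, 12.7% with 0 to 5 CpGs were lost, 8.18% with 6 to 15 and 14.4% with 16 or more. The shares at the same strength were 12.6%, 12.2% and 19.8%. Gains were 7.50% of TKO regions with 0 to 5 CpGs, 8.70% with 6 to 15 and 13.4% (11.4% to 15.6%) with 16 or more, where the shares at the same strength were 5.44%, 6.49% and 8.93%.

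The genes of the TET enzymes kept their strong CTCF regions, as did nearly all the genome. Of all WT regions with a −log10 q of at least 20, 1.30% were lost. The labels do not give the deleted parts, so the values at the TET genes do not check the genotype. In Tet1 and 10 kb either side, the strongest region (chr10:62881171-62881599) had 117 fragments in WT and 74 in TKO, a ratio of 0.611, and the next (chr10:62862412-62862861) 74 and 68. Of 9 WT regions 2 were lost, both in the weakest 2 deciles, at pileups of 16 and 17. Tet2 had 5, of which 2 were lost (pileups 23 and 16), and the strongest (chr3:133551942-133552413) had 101 and 71. At Tet3 the region on chr6:83356485-83356958 had 144 and 133, and the other WT region, at 10 fragments, was lost. Tet1 and Tet2 had median log2 pileup ratios of −0.41 and −0.56, below the −0.21 of all pairs, over 7 and 3 pairs. The shared Tet3 region had −0.17, above that of all pairs.

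The methyltransferase genes and Ctcf also kept their strong regions, as did nearly all WT regions with a −log10 q of at least 20 (1.30% lost). Dnmt1, the maintenance methyltransferase, kept all 6 WT regions, and the strongest (chr9:20898489-20898917) had 134 fragments in WT and 115 in TKO. One of its regions (chr9:20916203-20916572) was lower, with 46 and 25, a ratio of 0.525. Dnmt3b kept all 4 and gained 1, and its strongest region (chr2:153694452-153694901) had 149 and 153. Dnmt3a, a de novo methyltransferase, lost 2 of 7, at pileups of 14 and 22, while the strongest (chr12:3791808-3792256) had 196 and 174. At Ctcf the 2 strong regions had 241 and 229 fragments (chr8:105685645-105686122) and 65 and 53 (chr8:105661119-105661535), and the 2 lost ones had 13 and 11 in WT.

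Gene lists were read as genes and 10 kb either side. Together the 15 lists with members held 394 genes and 1098 WT regions, of which 185 were lost (16.8%, 14.8% to 19.2%), near the 19% of all WT regions. The share lost at the same strength lay inside the 95% interval of each of the 15 lists, 11 of which lay below it and 4 above. Median log2 pileup ratios were below 0 in 15 of 15 lists, as for all pairs, and below the −0.21 of all pairs in 11.

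**Figure D5:**
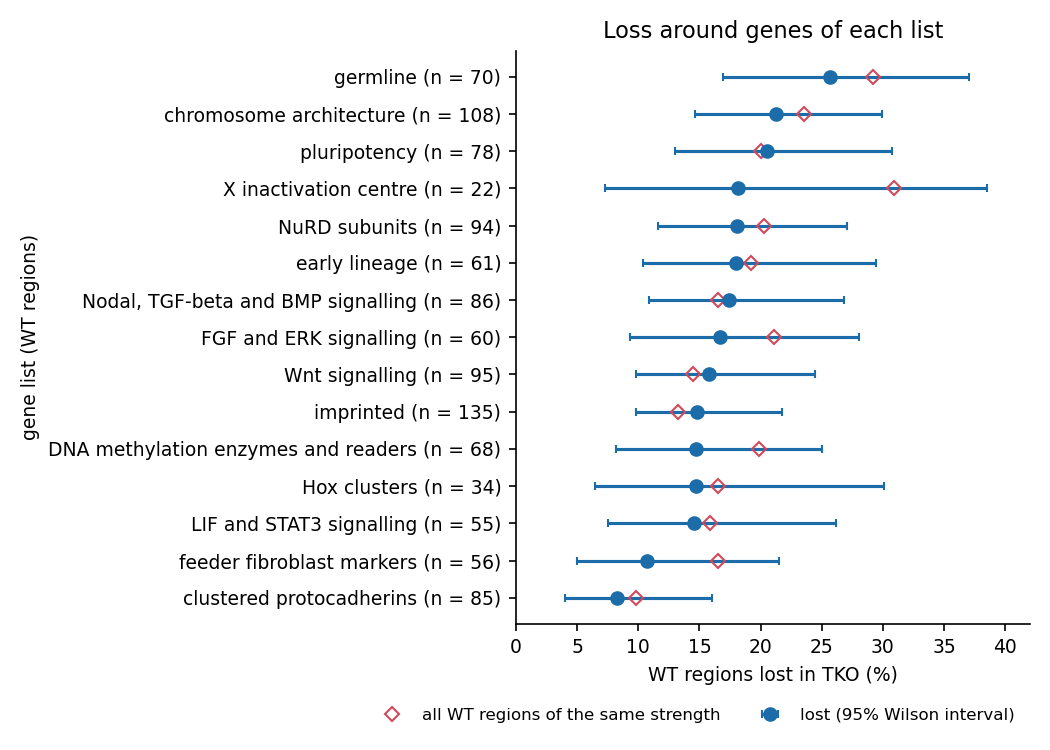
Percent of WT regions lost in TKO for each gene list (circles, 95% Wilson intervals) and the percent lost of all WT regions of the same strength (diamonds). Every diamond lies inside the interval of its list, with shares lost from 8.24% to 25.7%.

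Pluripotency genes lost 16 of 78 WT regions (20.5%; 20.0% at the same strength) and gained 8 of 69 TKO regions (11.6%; 8.90%). Their median log2 pileup ratio, −0.31, was the lowest of the lists, with 37 of 61 pairs below the median of all pairs, and 0 were 2-fold lower or higher by pileup. Esrrb, an orphan nuclear receptor of the naive state, lost 3 of 10, among them chr12:86507805-86508219 with 45 fragments in WT. The neighbouring Esrrb region (chr12:86508443-86508986) had 112 and 97. At Nanog, a core pluripotency factor, 2 of 9 were lost, at pileups of 24 and 23. The strongest Nanog region (chr6:122719903-122720742) had 171 in WT and 129 in TKO on backgrounds of 3.96 and 9.45, so its fold went from 34.6 to 12.4 with a pileup ratio of 0.728. Gdf3, a TGF-beta family ligand, lost 2 of 5, and a shared region on chr6:122595619-122596037 had 61 and 37.

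The signalling lists had similar shares. LIF and STAT3 genes lost 8 of 55 (14.5%; 15.9% at the same strength), with 2 weak ones of 3 at Socs3, the feedback inhibitor of the pathway, where the remaining region (chr11:117969877-117970308) had 128 and 131 fragments. Bcl3, an NF-kappa-B cofactor, lost none of 3 and gained 2. Wnt genes lost 15 of 95 (15.8%; 14.5%), 4 of them among the 6 of Axin1, a scaffold of the beta-catenin destruction complex, at pileups of 13 to 21. Nodal, TGF-beta and BMP genes lost 15 of 86 (17.4%; 16.5%) and gained 0 of 71, where 4.26% of TKO regions of the same strength were gained. Tgfbr2, a TGF-beta receptor gene, lost 3 of 6, and its strongest region (chr9:116087882-116088348) had 118 and 106. FGF and ERK genes lost 10 of 60 (16.7%; 21.1%). Etv5, a transcription factor downstream of FGF, had a region on chr16:22374903-22375303 with 50 and 35 fragments, lost 1 of 2 and gained 2. Fgfr2, an FGF receptor, lost 2 of 6, at pileups of 20 or fewer.

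Imprinted genes lost 20 of 135 WT regions (14.8%, 9.80% to 21.8%; 13.2% at the same strength) and gained 2 of 117 TKO regions (1.71%; 5.45%). The median log2 pileup ratio was −0.24, and 1 of 115 pairs, that at H19, was 2-fold lower by pileup. Trappc9 lost 3 of 10, Kcnq1, a potassium channel gene whose locus holds an imprinting centre, lost 2 of 8, and Airn, a non-coding RNA of the Igf2r locus, lost 1 of 4 and gained 1. No other pair of the list was 2-fold lower by pileup.

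Among chromatin lists, NuRD subunits lost 17 of 94 (18.1%; 20.3%). Hdac1, a histone deacetylase gene, held 2 regions at least 2-fold lower by fold, one on chr4:129549291-129549682 with 72 fragments in WT and 38 in TKO on backgrounds of 3.17 and 5.04, the other on chr4:129522323-129522671 with 26 and 14 on 2.16 and 3.15. Gatad2b lost 4 of 13, and Zmynd8 lost 2 of 19 and gained 2. Chromosome architecture genes lost 23 of 108 (21.3%; 23.5%). The cohesin loader gene Nipbl lost 3 of 9, the cohesin gene Stag1 3 of 10 and the condensin gene Ncaph2 3 of 6. The median log2 pileup ratio of the architecture list, −0.11, was among the highest. Genes of methylation enzymes and readers lost 10 of 68 (14.7%; 19.9%), with a median of −0.28. The X inactivation centre lost 4 of 22 (18.2%; 30.9%), 3 of them at the overlapping genes Xist and Tsix, with a median of −0.09.

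Of the developmental lists, clustered protocadherins, cell adhesion genes whose promoters bind CTCF, lost 7 of 85 (8.24%; 9.80%) and gained 1 of 80 TKO regions (1.25%; 2.15%). Hox genes lost 5 of 34 (14.7%; 16.5%). Inside Hoxb6 a shared region (chr11:96294502-96294867) had 63 fragments in WT and 86 in TKO, on backgrounds of 6.08 and 3.15. Germline genes lost 18 of 70 (25.7%; 29.2%), with 3 of 17 at Tex14 and 3 of 5 each at Brdt and Tex11. Early lineage genes lost 11 of 61 (18.0%; 19.2%). Among them were both WT regions of Pou3f1, at pileups of 14 and 23, and of the laminin gene Lamb1, at 7 and 15. Markers of the feeder fibroblasts lost 6 of 56 (10.7%; 16.5%), with a median log2 pileup ratio of −0.22. Feeder chromatin was not measured apart, and its part in the results was not tested.

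Lost regions seldom formed long stretches. A lost region had a lost neighbour in the WT list in 37.2% of cases, and a shared one in 33.5%. In the weakest quintile these shares were 37.4% and 36.8%. Of all stretches of consecutive lost regions 8449 held 1 region and 3 held 7. One stretch of 7 covered 954 kb beginning near Lrp1b, a lipoprotein receptor gene, with pileups from 10 to 35; the others lay near Cyp3a57, over 535 kb and with pileups from 12 to 19, and near Zfp963, over 122 kb and with pileups from 9 to 28. SKO had 2 regions within each. Gained regions reached stretches of 4, one of them at Mgll, the monoacylglycerol lipase gene, over 172 kb with pileups from 10 to 25 and no SKO region.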

How the data were processed

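CTCF ChIP-seq and input samples of WT and TKO cells were used as the deposited peak lists. Per the labels, the authors pooled the 3 replicates of a genotype and called ChIP against input. Bowtie2 2.3.4, SAMtools 1.9, MACS2 2.1.2, bedtools 2.25.0 and mm10 appear in the submitters' processing notes, without commands. Each deposited row carries a fold enrichment (a ratio), a −log10 p, a −log10 q, a score and a summit. Pileup and background were solved from fold and −log10 p (relative error under 1e-04), and the steps were tested on simulated data. Pairs are mutual best overlaps. Intervals are 95% Wilson intervals for shares and exact binomial-based ones for pileup ratios. They do not allow for the choice of regions by rank. "At the same strength" is the mean share of the deciles of −log10 q to which the regions of a class belong. Python 3.11.15, pandas 2.3.3 and scipy 1.17.1 were used.

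Genes and promoter sequences came from RefSeq tables of GRCm38.p6 with 49939 genes. Regions named are the 8 lost and 8 gained of highest −log10 q, and the 8 shared pairs of lowest and of highest fold ratio with a −log10 q of at least 20 in a list, on autosomes and X with a background up to 3 times the genome-wide one. In each list the 3 genes with most lost, gained or shifted regions were taken, and H19, Ctcf and the TET and DNMT genes always. They carry the name of the gene that holds the summit or the nearest boundary within 100 kb. Some items taken by the rule are not reported here. The comparison, the 16 lists and the rules were chosen with earlier results of these data known. A list of histone gene clusters matched no symbol. Alternatives covered thresholds, overlap, level, windows and motif.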

Additional observations from a re-analysis of the deposited data

How the results depend on the processing

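Lost and gained counts stayed within 1.5 times of the reported ones with summits within 100 bp, with an overlap of 50% of both regions and on autosomes and X alone, and so did lost regions with a −log10 q of at least 5 (9617), while gained ones at that threshold numbered 2766. By pileup over the genome-wide background the median shared shift was −0.21 in place of −0.15, with 444 lower and 484 higher pairs in place of 1415 and 1328. Without subtraction of the median 2636 pairs were lower and 619 higher by fold. The share lost near gene ends less that elsewhere in the same deciles was −3.99 percentage points, and −3.00 with all gene biotypes. With the shorter core AGNNGGC, 14.2% of promoter regions with CG in a match were lost, in place of 8.56%. Leaving out chromosome 14, chosen after seeing the data, gave 12821 lost and 4500 gained regions and a median shift of −0.15. Over all alternatives run, those named included, 25 values stayed within 1.5 times of the reported count or within the error set for a share or median, and 8 did not. For single gene lists the 30 values stayed within the counting error of the share, which is wide: with gene bodies alone Hox genes lost 6.67% in place of 14.7%, and LIF and STAT3 genes 22.2% in place of 14.5%. No paired analysis was possible because the lists pool replicates, and leaving out a replicate was not run for that reason. Depth limits what can be called lost: the 2 weakest WT deciles, with median pileups of 12 and 16 fragments, held 5009 and 3938 of the lost regions, and counting error is largest there.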
